A study of Mus musculus with 8 samples.

Results

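The question addressed here was how contact with fibroblasts altered the response of melanoma cells to PLX4720, an inhibitor of mutant BRAF. All 8 arrays of the dataset entered, as 4 groups of 2 arrays. The 5555-mEGFP mouse melanoma line was grown alone (mono-culture) or mixed with MAF2-mCherry melanoma-associated fibroblasts (co-culture), and each culture received DMSO at 0.1% or PLX4720 for 24 h. The sample labels give the dose as 1 mM, a unit that could not be checked. From co-culture the mEGFP-positive cells were collected by FACS, and sorting of the mono-cultures is not stated, so an effect of sorting cannot be told apart from an effect of co-culture in DMSO or in PLX4720. Both the cancer line and the fibroblast line are single lines, and nothing states that the 2 arrays of a group came from separate cultures, so the p-values below reflect only the variation among these arrays, which may be technical. For each gene the drug effect in co-culture minus the drug effect in mono-culture was calculated on log2 intensities and is called the difference in response below. It was calculated for every gene with a probe whose detection p was under 0.01 on 2 or more arrays, which gave 7357 of the 16593 named genes on the array.

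BRAF passes signals from RAS to the kinases MEK and ERK, and in many melanomas a mutated BRAF keeps ERK active. ERK raises the transcription of a set of output genes, among them its own inhibitors of the DUSP and SPRY families, the ETV factors and the cyclin D1 gene, and through MYC and E2F factors it promotes ribosome production and DNA synthesis. PLX4720 blocks the mutated kinase and these genes then fall. Fibroblasts in a tumour secrete growth factors, cytokines and matrix, and are known to protect melanoma cells from BRAF inhibitors.

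Per array, 9755 to 10021 probes were detected, 37.96% to 39% of all, and replicate arrays correlated across the tested genes with r of 0.990 to 0.995. Of 17 melanocyte lineage genes on the array 16 were detected on no array, including Mitf, Tyr, Dct, Pmel and Mlana, with Gpnmb the exception, so the defining markers of the melanocyte lineage were absent in these cells at the depth of these arrays. Of 22 fibroblast markers 8 were detected on no array (Dcn, Lum, Fap, Postn, Thy1, Tagln, Col5a2 and Col6a2). The mean intensity over all 22 fibroblast markers (as log2) was 8.27 to 8.51 in mono-culture with DMSO and 8.32 to 8.37 in co-culture with DMSO. With PLX4720 it was 9.50 to 9.98 in mono-culture and 9.67 on both arrays in co-culture. It therefore rose in value with the drug also where no fibroblasts were present. Acta2 was the brightest marker with PLX4720 (13.67 and 12.40 in mono-culture, against 8.82 and 9.39 with DMSO), so this mean leans on that gene. Of 9 macrophage and 8 endothelial markers, 8 and 6 were detected on no array. In bulk samples, fewer cells of a type and less RNA per cell cannot be told apart.

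PLX4720 changed 2850 genes in mono-culture (38.7% of those tested, adjusted p under 0.05 in limma) and 1987 in co-culture (27%). Rises made up 1483 (20.2%) and falls 1367 (18.6%) of the tested genes in mono-culture, and 1053 (14.3%) and 934 (12.7%) in co-culture. Of 3377 genes that passed in either culture 1460 passed in both, and of these 1436 moved in the same direction and 24 in opposite directions. Across the 7357 genes the drug effects of the cultures, which share no array, correlated with r = 0.785, a description since genes are not independent replicates.

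The size of the response was compared over the 3418 genes (46.5%) with an average drug effect over both cultures at adjusted p under 0.05, since the average does not favour either culture. In 2249 of them (65.8%) the effect was smaller in value in co-culture, and in 1169 larger. The median effect in the direction of the average was 0.62 (log2) in mono-culture against 0.49 in co-culture. The median difference in response was -0.14 ± 0.087 (SD of the value from replicates 1 and the value from replicates 2, n = 2). It was -0.20 from the arrays of replicate 1 alone and -0.076 from those of replicate 2 alone. As nothing states that the replicate numbers pair the samples, this SD comes from 1 of several possible splits, and the others were not run. Rises and falls were alike in this respect, with 64.2% of 1781 rises and 67.5% of 1637 falls smaller in co-culture.

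For a single gene, 2 arrays per group seldom told a smaller response from an equal one. The difference in response passed an adjusted p of 0.05 in 9 of 7357 genes (0.122%) and an unadjusted p of 0.05 in 1217 (16.5%), 635 positive (8.63%) and 582 negative (7.91%). Of the 9, 3 were positive and 6 negative. This count depended on the treatment of the intensities: 59 positive and 36 negative genes passed with the log2 values of the authors, 72 and 50 with an offset of 50, and 85 and 25 with median scaling. It ranged from 2 to 35 when 1 array was left out. Among the 3418 responsive genes, 510 were smaller in co-culture and 184 larger at an unadjusted p under 0.05. A response was called kept where the 95% limits placed the log2 effect in each culture above 0.5 times that in the other. The difference also had not to pass at an adjusted p of 0.05, and this held for 287 genes (8.4%). As the rule is a ratio, it allows a larger difference the larger the response. The values placed 1 gene (Rasl11b) as blunted and 4 (Fos, Csn3, Atg4d and Samd7) as enlarged at an adjusted p under 0.05, but each of these was undetected in at least 1 group, so that the ratio of its effects was not measured. Of the 287 kept genes 226 were detected in every group, as were 434 of the 510 and 138 of the 184. For 3126 (91.5%) no class could be decided. The larger the response, the more often it was decided: 54 of the 63 genes with an average effect of at least 2 (log2) were kept, against 116 of 352 between 1 and 1.5.

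**Figure D1:**
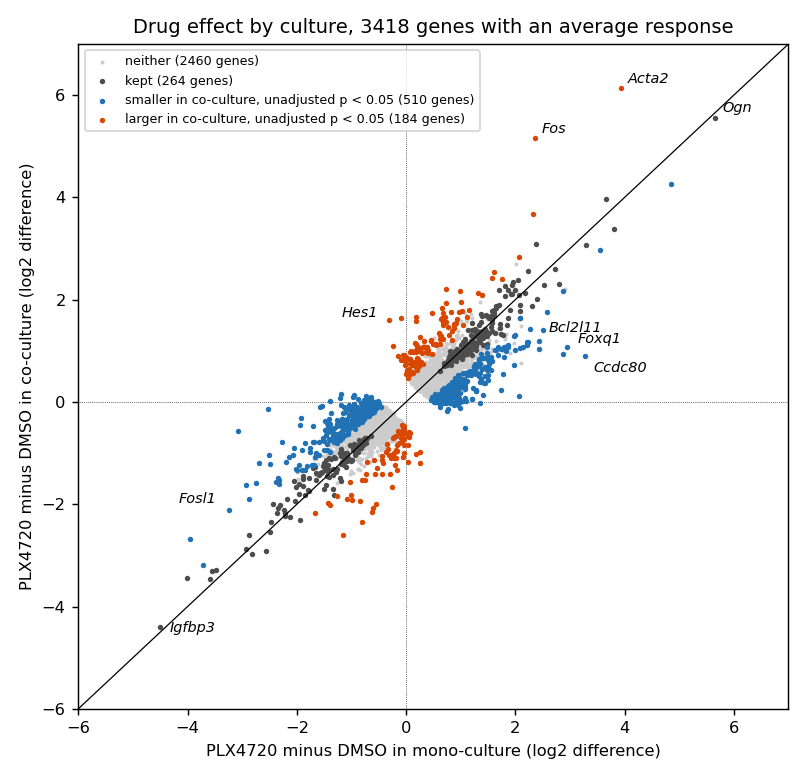
Drug effect in co-culture (vertical axis, PLX4720 minus DMSO, log2 difference) against that in mono-culture (horizontal axis) for the 3418 genes with an average response. Each point is a gene and the line marks equal effects. Blue points (510) are smaller and orange points (184) larger in co-culture at an unadjusted p under 0.05, dark points (264) are kept and not past that p, and grey points are none of these. Ogn and Igfbp3 lie near the line, Fos above it, and Foxq1 and Ccdc80 below it.

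The difference in response that had the smallest p was that of Fos, the AP-1 subunit that growth factor signals induce within minutes. Fos was not detected in either culture with DMSO, at 4.58 and 4.80 (log2 level) in mono-culture and 4.93 and 5.08 in co-culture. With PLX4720 it stood at 7.05 and 7.05 in mono-culture and at 10.36 and 9.96 in co-culture. Both co-culture arrays with the drug lay above both mono-culture arrays with the drug, and the DMSO values were background. Against the lowest detected signal the rise was at least 2.82-fold in mono-culture and at least 24.1-fold in co-culture, and the difference in response had an adjusted p of 0.00258. It stayed under 0.05 in 15 of 16 alternative settings that could be fitted for this gene. Junb, another AP-1 subunit, rose by 0.86 in mono-culture against 0.97 in co-culture, and Jun fell by 1.41 and 1.47. Fosb was at 7.03 and 6.95 in co-culture with DMSO and at 8.52 and 6.99 with the drug, so that replicate 1 alone carried its larger value, and its difference in response did not pass (0.72 ± 0.54, SE, adjusted p = 0.531). Among the AP-1 genes named here, a difference in response past the threshold was thus found in Fos alone.

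The promoter of Fos is shown because its difference was the clearest. The sequence is the 250 bases before the transcription start from RefSeq (GRCm38.p6, chr12:85473640-85473889, plus strand), 5′ to 3′, with the core of the cAMP response element, TGACGT on either strand, in capitals.
Fos: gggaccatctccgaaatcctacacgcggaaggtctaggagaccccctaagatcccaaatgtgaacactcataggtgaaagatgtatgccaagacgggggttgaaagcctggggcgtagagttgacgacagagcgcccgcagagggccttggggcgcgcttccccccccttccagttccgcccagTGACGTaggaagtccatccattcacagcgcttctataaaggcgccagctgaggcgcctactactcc
This core lies at -66 to -61, and 6.47% of all 32851 RefSeq promoter windows of this length hold one. The AP-1 motif TGANTCA, the STAT motif TTCNNNGAA and the E2F motif TTTNNCGC, searched on both strands, were not found in this window.

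Among 19 tested immediate-early genes outside AP-1, the difference in response was positive in 16, as it was in 3664 of all 7357 genes. It passed the unadjusted p as positive in 6 (8.63% of all genes) and as negative in 1 (7.91%). Their median drug effect was 0.034 in mono-culture and 0.36 in co-culture, with a median difference of 0.33, against 0.013, 0.005 and -0.001 over all genes tested. Egr1, a zinc finger factor induced by ERK and SRF, was at 11.15 and 11.24 in mono-culture with DMSO and at 11.19 and 10.90 with PLX4720, and at 11.62 and 11.64 in co-culture with DMSO and at 12.57 and 12.51 with PLX4720. It rose in co-culture (0.90, adjusted p = 0.00123) and did not pass in mono-culture (-0.15), and its difference in response of 1.05 ± 0.19 had an adjusted p of 0.059. Zfp36, which encodes an RNA-binding protein that shortens the life of cytokine mRNAs, rose by 0.92 in mono-culture and 1.62 in co-culture. Gadd45b, a stress gene, went the other way, with a rise of 1.5 in mono-culture and 0.69 in co-culture. With PLX4720, 7 of the 19 genes were higher in co-culture than in mono-culture at an adjusted p under 0.05, where 7.35% of all genes differed between the cultures in either direction, and with DMSO 1 was, where 1.66% of all genes differed. These contrasts between cultures use the same arrays as the difference in response.

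Of the genes of gp130 and STAT3 signalling, by which cytokines of the interleukin-6 family act, some had a larger response in co-culture and others a smaller one. Among members with an average response, 5 had the larger and 5 the smaller effect in co-culture. Socs3, a feedback inhibitor that STAT3 induces, was at 8.16 and 8.42 in mono-culture with DMSO and at 7.88 and 8.20 with PLX4720, and at 8.89 and 8.89 in co-culture with DMSO and at 10.02 and 9.95 with PLX4720. In mono-culture the arrays of the 2 treatments overlapped, and in co-culture they lay apart by more than 1 log2 unit. The difference in response was 1.34 ± 0.21 (adjusted p = 0.0554), and it passed in 5 of 17 alternative settings. Stat3 itself rose by 0.55 in mono-culture and 1.14 in co-culture, although 1 of its 3 probes gave a difference of -0.06. Il6st, which encodes gp130, rose by 0.91 and 1.54. Cish, a STAT5 target of the SOCS family, did not pass in mono-culture (-0.00) and rose by 0.88 in co-culture. The list was not uniform, since Pim3 fell by 0.91 in co-culture. Socs5 fell by 1.10 in mono-culture and was at -0.38 in co-culture without a call, so its positive difference was a smaller fall. Of the 12 tested genes 9 had a positive difference. At an unadjusted p under 0.05, 5 were positive (8.63% of all genes) and 1 negative (7.91%). The median of the differences was 0.47, although the median drug effects themselves were near each other (-0.29 in mono-culture and -0.32 in co-culture). With PLX4720, 4 were higher in co-culture.

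The promoter of Socs3 is shown with the STAT motif TTCNNNGAA in capitals (RefSeq, GRCm38.p6, chr11:117969367-117969616, minus strand, 5′ to 3′).
Socs3: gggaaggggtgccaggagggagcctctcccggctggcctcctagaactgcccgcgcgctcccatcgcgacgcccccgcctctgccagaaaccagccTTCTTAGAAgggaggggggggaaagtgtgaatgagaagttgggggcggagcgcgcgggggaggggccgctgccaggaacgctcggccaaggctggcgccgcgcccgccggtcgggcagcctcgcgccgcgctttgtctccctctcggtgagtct
The match lies at -154 to -146 from the transcription start, and 7.02% of all promoter windows hold this motif.

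Hes1, a repressor induced by Notch, was at 7.33 and 7.38 in mono-culture with DMSO, at 7.18 and 6.90 with PLX4720, at 8.05 and 8.08 in co-culture with DMSO and at 10.14 and 9.18 with PLX4720. It rose 3.03-fold in co-culture, and its difference in response was 1.91 ± 0.36 (adjusted p = 0.0651). Of 5 tested genes of the Notch pathway 2 rose in co-culture (14.3% of all genes) and none in mono-culture (20.2%). Notch1, a receptor, did not pass in mono-culture (0.26) and rose at least 1.53-fold in co-culture from an undetected level (adjusted p = 0.0146 in limma). Rbpj, the DNA-binding partner of Notch, fell 3.13-fold in mono-culture and at least 2.53-fold in co-culture to an undetected level, so the ratio of its effects was not measured. Id3, an inhibitor of basic helix-loop-helix factors and a target of BMP signals, stood at 7.13 and 7.28 in mono-culture with DMSO and at 6.98 and 7.31 in co-culture with DMSO. It stood at 8.0 and 7.87 with PLX4720 in mono-culture and at 9.11 and 9.05 in co-culture, a 1.66-fold and a 3.84-fold rise. The DMSO arrays of both cultures overlapped, and the PLX4720 arrays of co-culture lay above all others. Its relatives were lower in mono-culture with the drug: Id1 fell by 1.17 in mono-culture and did not pass in co-culture (-0.41), and Id2 was at -0.66 and 0.63, neither of which passed.

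**Figure D2:**
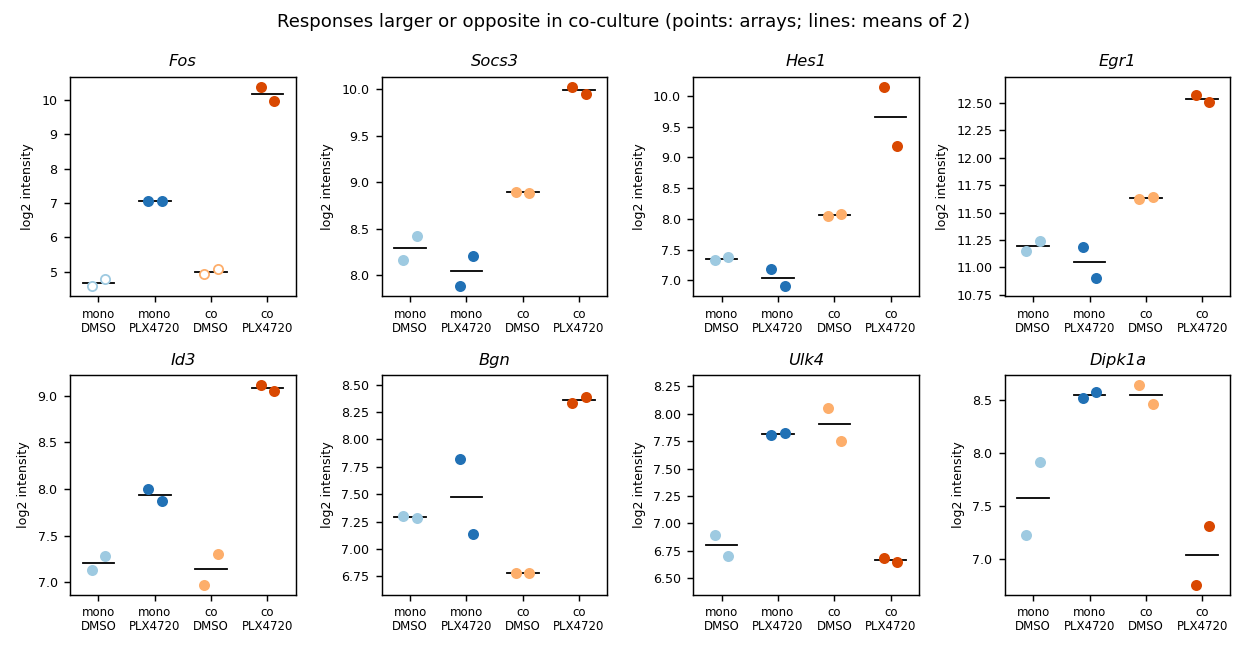
Log2 intensity of 8 genes on each of the 8 arrays (points; open where the gene was detected on no array of the group), by culture and treatment, with lines at the mean of 2 arrays. In Fos, Socs3, Hes1, Egr1, Id3 and Bgn both co-culture arrays with PLX4720 lie above all others, and in Ulk4 and Dipk1a the drug effect has opposite directions in the cultures.

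Of 14 tested NF-kB targets and chemokines, 13 had a positive difference in response, as had 3664 of all 7357 genes. In 5 it passed an unadjusted p of 0.05 as positive (8.63% of all genes). The list median was 0.22 for the drug effect in mono-culture and 0.78 in co-culture. Rises passed in 4 members in mono-culture (20.2% of all genes) and in 8 in co-culture (14.3%). Falls passed in 3 (18.6%) and 2 (12.7%). Csf1, the growth factor of macrophages, was at 8.69 and 8.87 in mono-culture with DMSO, at 9.27 and 8.76 with PLX4720, at 8.82 and 8.61 in co-culture with DMSO and at 9.62 and 9.81 with PLX4720. The drug effect passed only in co-culture (1.00, adjusted p = 0.00354, against 0.24, adjusted p = 0.325), and the difference itself did not pass (adjusted p = 0.19). Ccl7, a chemokine for monocytes, was detected in neither culture with DMSO and rose at least 1.78-fold in mono-culture and at least 2.43-fold in co-culture. Ccl2, which attracts the same cells, was at -0.34 in mono-culture and rose by 0.78 in co-culture, and Vcam1, an adhesion molecule for leukocytes, fell by 0.62 in mono-culture and was at 0.41 in co-culture. Of the macrophage markers 8 of 9 were detected on no array, while Cd14 was detected on every array, with group means of 6.73 to 7.51.

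Matrix and contractile genes rose with the drug in both cultures, and only some of them by more in co-culture. Of 24 tested collagen and matrix genes 13 rose in mono-culture (20.2% of all genes) against 15 in co-culture (14.3%), and 1 fell in each. Acta2, smooth muscle actin, was at 8.82 and 9.39 in mono-culture with DMSO and at 13.67 and 12.40 with PLX4720, and at 6.74 and 6.69 in co-culture with DMSO and at 12.80 and 12.90 with PLX4720. It rose 15.2-fold in mono-culture and 70.2-fold in co-culture, and co-culture minus mono-culture was -2.39 (log2) with DMSO and -0.19 with PLX4720, so the cultures stood apart with DMSO. The difference of 2.20 ± 0.48 had an adjusted p of 0.0834, and by the rule above Acta2 was in the kept class. Its other 3 probes gave smaller differences of 0.79, 1.39 and 0.28, the last with rises of 3.56 and 3.84, so the size of the difference depended on the probe. Bgn, the proteoglycan biglycan, rose by 1.58 in co-culture and was at 0.19 in mono-culture. Col3a1 rose by 0.98 and 1.76 on the probe used, while its second probe gave 1.37 and 0.51, so no direction can be given for its difference. Col6a1 rose by 1.58 in mono-culture and was undetected in co-culture with DMSO. As these are also fibroblast markers, the mean level of that list is given above, and the part that residual fibroblasts play in them was not tested. Of the 14 tested fibroblast markers 10 rose in each culture, where 20.2% of all genes rose in mono-culture and 14.3% in co-culture. At an unadjusted p under 0.05, 4 had a positive difference (8.63% of all genes) and none a negative one. Dcn, Lum, Fap, Postn and Thy1 were detected on no array, while Cd248, Pdgfra, Pdgfrb, Col5a1, Loxl1 and Mmp2 were detected on every array, in mono-culture too.

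Genes of ERK output fell in both cultures and by less in co-culture. Of 17 tested, 14 fell in mono-culture (18.6% of all genes) against 13 in co-culture (12.7%). Of the 14 with an average response 12 had the smaller effect in co-culture, where 65.8% of all responsive genes did. The median drug effect was -1.43 in mono-culture and -1.01 in co-culture, with a median difference of 0.49. At an unadjusted p under 0.05, 6 differences were positive (8.63% of all genes) and 1 negative (7.91%). Dusp6, the phosphatase that switches ERK off, was at 11.51 and 11.66 in mono-culture with DMSO and at 9.15 and 8.16 with PLX4720, and at 11.94 and 11.95 in co-culture with DMSO and at 10.46 and 10.16 with PLX4720. It fell 7.60-fold in mono-culture and 3.10-fold in co-culture (difference 1.29 ± 0.37, adjusted p = 0.145), and 1 of its 3 probes gave a difference of -0.39. Fosl1, an AP-1 subunit whose level follows ERK activity, fell from 8.61 and 8.42 to the undetected levels of 5.43 and 5.13 in mono-culture, a fall of at least 7.85-fold, and from 8.58 and 8.76 to 6.75 and 6.36 in co-culture, where it remained detected. Ccnd1, the cyclin D1 gene, fell by 1.90 in mono-culture and 1.33 in co-culture. Phlda1 did not pass in either culture (-0.77 and 0.53).

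The list was not uniform in this. Dusp4, another ERK phosphatase, fell by 1.43 in mono-culture and by 1.97 in co-culture. The kept class held 7 of the 17 genes, namely Etv4, Etv5, Spry4, Myc, Fosl1, Ccnd1 and Dusp4, of which Fosl1, Ccnd1 and Dusp4 also had a difference at an unadjusted p under 0.05. Etv5, an ETS factor, fell at least 3.36-fold in each culture to an undetected level, and Myc lay at the detection limit. Etv4, Spry4 and Fosl1 were also undetected with PLX4720 in mono-culture, which leaves Ccnd1 and Dusp4 as the members of this class measured in every group. With PLX4720 5 of the 17 were higher and 1 was lower in co-culture at an adjusted p under 0.05, where 7.35% of all genes differed between the cultures.

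DNA replication genes showed the same order. Of 34 tested, 32 fell in mono-culture (18.6% of all genes) against 25 in co-culture (12.7%). Of the 32 with an average response 30 had the smaller effect in co-culture, where 65.8% of all responsive genes did. The median was -1.0 in mono-culture against -0.68 in co-culture. At an unadjusted p under 0.05, 10 differences were positive (8.63% of all genes) and 0 negative (7.91%). Rrm2, the subunit of ribonucleotide reductase that limits its activity, was at 8.83 and 9.06 in mono-culture with DMSO and at 7.33 and 7.59 with PLX4720, and at 9.08 and 9.03 in co-culture with DMSO and at 8.50 and 8.52 with PLX4720. It fell 2.80-fold and 1.46-fold, with a difference of 0.94 ± 0.20 (adjusted p = 0.077), and the PLX4720 arrays of the cultures did not overlap. Cdc6, which loads the MCM helicase, fell by 2.19 and 1.17, Uhrf1, which keeps DNA methylation through replication, fell by 1.17 in mono-culture and was at -0.32 in co-culture, and Tk1, thymidine kinase, fell by 1.43 and 0.59. Other members fell alike in both cultures, such as the helicase subunit Mcm7 (0.97 and 0.93) and Mcm10 (1.13 and 1.08). With PLX4720, 7 of the 34 were higher in co-culture, against 7.35% of all genes that differed. Of the G1 genes, Ccne2, cyclin E2, fell at least 2.69-fold in mono-culture to an undetected level. In co-culture it fell 2.95-fold and remained detected, and the bound does not tell which fall was larger. Cdkn2a fell by 1.10 in co-culture and was at -0.22 in mono-culture. Of 27 tested mitosis genes 3 fell in each culture, where 18.6% of all genes fell in mono-culture and 12.7% in co-culture.

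Cdca7, a chromatin factor gene that MYC and E2F induce, had one of the smallest p among responses that were smaller in co-culture. It was at 10.33 and 10.50 in mono-culture with DMSO and at 8.11 and 7.74 with PLX4720, and at 10.63 and 10.76 in co-culture with DMSO and at 9.58 and 9.40 with PLX4720. It fell 5.6-fold and 2.31-fold (difference 1.28 ± 0.22, adjusted p = 0.0566, past the threshold in 6 of 17 alternative settings). Its promoter is shown with the E2F motif TTTNNCGC and the STAT motif TTCNNNGAA in capitals (RefSeq, GRCm38.p6, chr2:72475969-72476218, plus strand).
Cdca7: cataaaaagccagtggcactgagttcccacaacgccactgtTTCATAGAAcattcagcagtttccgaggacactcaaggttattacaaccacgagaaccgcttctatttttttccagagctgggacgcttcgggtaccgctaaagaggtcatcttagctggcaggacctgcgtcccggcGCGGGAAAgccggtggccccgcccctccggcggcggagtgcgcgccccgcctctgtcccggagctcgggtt
The E2F match, on the minus strand, lies at -71 to -64 and the STAT match at -209 to -201. Of all promoter windows, 4.28% hold the first and 7.02% the second.

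The MYC targets and ribosome biogenesis genes fell as a group in both cultures, with medians of -1.08 and -0.72. Falls passed in 27 of 30 in mono-culture (18.6% of all genes) and in 22 in co-culture (12.7%). Of the 29 with an average response 22 had the smaller effect in co-culture, where 65.8% of all responsive genes did. At an unadjusted p under 0.05, 14 differences were positive (8.63% of all genes) and 0 negative (7.91%). Rrp12, a factor for export of ribosomal subunits, was at 9.77 and 9.70 in mono-culture with DMSO and at 8.02 and 7.73 with PLX4720, and at 9.83 and 9.96 in co-culture with DMSO and at 9.16 and 9.02 with PLX4720. It fell 3.63-fold and 1.75-fold, with a difference of 1.06 ± 0.20 (adjusted p = 0.065). Ddx21, a nucleolar helicase, fell by 1.71 and 0.79, Srm, spermidine synthase, by 2.05 and 0.89, and Tfrc, the transferrin receptor, by 2.15 and 1.08. Ebna1bp2 fell by 1.32 and 0.50 on the probe used, while its other 2 probes gave differences of -0.40 and -0.43. Nop2, Nop56 and Mybbp1a were in the kept class. With PLX4720 11 of the 30 were higher in co-culture, where 7.35% of all genes differed between the cultures. Of 26 tested genes of cytosolic ribosomal proteins, 1 had an average response, and the median effects were -0.013 and -0.078.

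**Figure D3:**
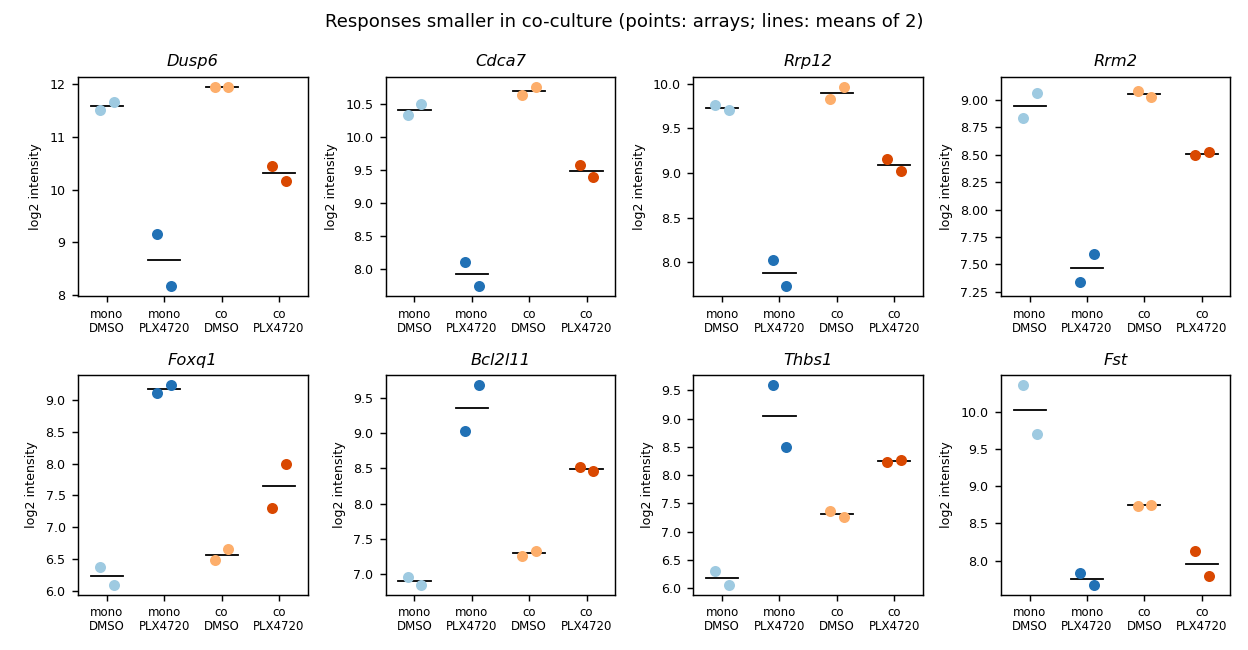
Log2 intensity of 8 genes on each of the 8 arrays (points), by culture and treatment, with lines at the mean of 2 arrays. The PLX4720 arrays of co-culture lie between the DMSO arrays and the PLX4720 arrays of mono-culture in Dusp6, Cdca7, Rrp12, Rrm2, Foxq1 and Bcl2l11, while in Fst the cultures part mainly with DMSO.

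Smaller effects in co-culture were also found among rises. Foxq1, a forkhead factor gene, was at 6.37 and 6.10 in mono-culture with DMSO and at 9.12 and 9.23 with PLX4720, and at 6.48 and 6.66 in co-culture with DMSO and at 7.30 and 7.99 with PLX4720. It rose 7.67-fold in mono-culture and 2.11-fold in co-culture, with a difference of -1.86 ± 0.30 (adjusted p = 0.0554, past the threshold in 6 of 17 alternative settings). Bcl2l11 encodes BIM, a BH3-only protein that triggers apoptosis and that ERK represses. It was at 6.96 and 6.85 in mono-culture with DMSO and at 9.03 and 9.67 with PLX4720, and at 7.26 and 7.33 in co-culture with DMSO and at 8.51 and 8.46 with PLX4720. It rose 5.43-fold and 2.28-fold (difference -1.25 ± 0.27, adjusted p = 0.0826), and the PLX4720 arrays of the cultures did not overlap.

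Other members of the BCL2 family varied. Pmaip1, which encodes NOXA, was at -0.01 in mono-culture and fell by 0.61 in co-culture. Bmf, another BH3-only gene, was in the kept class by its values. It rose by 2.80 (log2) in mono-culture and at least 2.98-fold (not log2) from an undetected level in co-culture. This bound leaves the ratio of its effects unmeasured. Bbc3, which encodes PUMA, rose by 0.83 in mono-culture and was at 0.16 in co-culture on the probe used, and its 2 other probes gave differences of 0.06 and 0.07. Of the protective members, Bcl2l1 fell by 0.43 and 0.47, and the differences were 0.01 for Bcl2 and 0.28 for Mcl1. With PLX4720, Bcl2l11, Pmaip1 and Bmf were lower in co-culture than in mono-culture at an adjusted p under 0.05, the 3 of 12 tested members that differed, where 7.35% of all genes did.

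Thbs1, thrombospondin 1, was at 6.30 and 6.06 in mono-culture with DMSO and at 9.59 and 8.51 with PLX4720, and at 7.37 and 7.26 in co-culture with DMSO and at 8.23 and 8.27 with PLX4720, a 7.29-fold and a 1.91-fold rise. Ccdc80, a secreted matrix protein, was not detected in mono-culture with DMSO (5.20 and 5.21) and stood at 9.03 and 7.90 with PLX4720, while in co-culture it was already at 8.37 and 8.18 with DMSO and reached 9.15 and 9.20. In both genes co-culture with DMSO lay above mono-culture with DMSO. Smaller rises were also seen in Tead2, a DNA-binding partner of YAP (1.5 and 0.44), in Myo10, a myosin of filopodia (0.81, and -0.02 without a call), and in Lrba (1.05, and 0.02 without a call). Fst, which encodes the activin antagonist follistatin, fell from 10.36 and 9.70 to 7.83 and 7.68 in mono-culture, and from 8.74 and 8.75 to 8.13 and 7.79 in co-culture. Integrin and focal adhesion genes had a median rise of 0.44 in mono-culture against 0.25 in co-culture, and 1 of 15 had a negative difference at an unadjusted p under 0.05 (7.91% of all genes), a share near that background.

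In genes of the NRF2 programme, which supplies glutathione and detoxifying enzymes, the difference arose mainly with DMSO. The difference in response was positive in 18 of 20 tested, against 3664 of all 7357 genes, with a list median of 0.57. In 12 it passed an unadjusted p of 0.05 as positive (8.63% of all genes). With DMSO, where 1.66% of all genes differed between the cultures, 8 of the 20 were lower in co-culture at an adjusted p under 0.05 and none was higher, and with PLX4720 2 were lower. Slc7a11, the cystine transporter, was at 8.59 and 8.0 in mono-culture with DMSO and at 5.70 and 5.49 with PLX4720, and at 5.95 and 5.99 in co-culture with DMSO and at the undetected levels of 4.94 and 4.62 with PLX4720. Nqo1, a quinone reductase, was at 10.72 and 10.10 and then at 10.39 and 9.84 in mono-culture, and rose from 8.46 and 8.41 to 9.71 and 9.37 in co-culture. The glutathione transferases Gsta1 and Gsta2 fell in mono-culture, where replicates 1 and 2 stood apart by more than 1 log2 unit with DMSO (10.17 and 9.02, and 8.31 and 7.04).

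Srxn1, sulfiredoxin, was at 10.60 and 10.35 in mono-culture with DMSO and at 9.59 and 9.44 with PLX4720, and stayed at 9.63 and 9.64 with DMSO and 9.67 and 9.53 with PLX4720 in co-culture. The fall of 0.95 in mono-culture thus ended at the level that co-culture had with DMSO. Its promoter is shown with the AP-1 motif TGANTCA in capitals, which is also part of many antioxidant response elements (RefSeq, GRCm38.p6, chr2:152105274-152105523, plus strand).
Srxn1: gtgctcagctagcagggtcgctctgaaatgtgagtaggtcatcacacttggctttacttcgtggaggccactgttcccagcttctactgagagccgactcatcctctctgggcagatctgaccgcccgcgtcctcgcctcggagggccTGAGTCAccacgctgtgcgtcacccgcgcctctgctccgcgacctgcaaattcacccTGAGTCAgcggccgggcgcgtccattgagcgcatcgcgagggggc
The matches lie at -102 to -96 and at -45 to -39, and 6.75% of all promoter windows hold at least 1.

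Sterol and fatty acid synthesis genes and chaperones had smaller differences in the positive direction. Of 27 sterol and fatty acid genes 22 had a positive difference, as had 3664 of all 7357 genes. At an unadjusted p under 0.05, 6 were positive (8.63% of all genes) and 1 negative (7.91%). The medians were 0.17 in mono-culture and 0.39 in co-culture. Idi1, an isomerase of the mevalonate pathway, was at -0.58 in mono-culture and rose by 1.33 in co-culture. In mono-culture with DMSO its replicates were at 6.95 and 5.83, a gap wider than that of any other group. Of 14 chaperones 11 had a positive difference, against the same 3664 of all 7357 genes. Hspd1, the mitochondrial HSP60, fell by 1.08 in mono-culture and was at -0.34 in co-culture on the probe used, while its second probe gave -1.05 and -0.93. Interferon-stimulated genes rose in both cultures, 12 of 17 in mono-culture (20.2% of all genes) against 14 in co-culture (14.3%). Their median difference of 0.12 turned to -0.05 in 2 of 17 alternative settings.

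**Figure D4:**
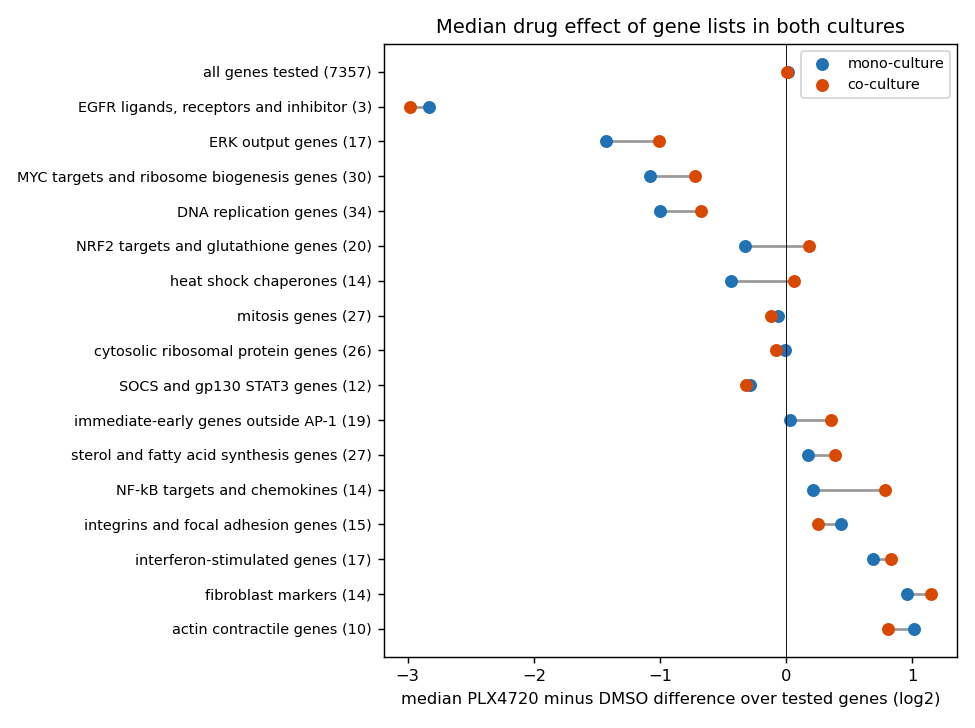
Median drug effect (PLX4720 minus DMSO, log2) of 16 gene lists and of all genes tested, in mono-culture (blue) and co-culture (orange), with the number of tested genes in brackets. ERK output, MYC and ribosome biogenesis, and DNA replication genes lie below 0 in both cultures and nearer to 0 in co-culture, while NF-kB targets lie further above 0 in co-culture.

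Of the strongest responses most were kept by the ratio rule, 54 of 63 as given above, a rule that is easier to meet for large effects. Acta2 met it with rises of 15.2-fold and 70.2-fold. With bounds of 0.67 to 1.5, the kept genes of all sizes numbered 56 instead of 287. Igfbp3, a binding protein for insulin-like growth factors, fell from 10.41 and 9.79 to 5.38 and 5.81 in mono-culture and from 10.20 and 10.27 to 5.92 and 5.77 in co-culture, 22.6-fold and 21.0-fold. The 95% limits of its difference in response were -0.56 and 0.78. Upp1, uridine phosphorylase, fell by 3.48 and 3.28, and Sema7a, a membrane semaphorin, by 3.58 and 3.47. Among rises, Ccn5 of the CCN matrix family rose 12.6-fold and 15.8-fold, Gbp2, an interferon-induced GTPase, by 2.73 and 2.61, and Pik3r3, a regulatory subunit of PI3-kinase, by 2.19 and 2.13. Ogn, the small proteoglycan osteoglycin, was detected in neither culture with DMSO and rose at least 28.2-fold in mono-culture and at least 31.9-fold in co-culture, bounds that leave the ratio of its effects unmeasured. Tgm2, transglutaminase 2, rose by 4.85 and 4.25.

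Hbegf and Errfi1, of the EGF receptor system, were in the kept class. Hbegf, the membrane-anchored EGF-like ligand named by the study, was at 9.49 and 9.40 in mono-culture with DMSO and at 7.02 and 6.74 with PLX4720, and at 10.63 and 10.48 in co-culture with DMSO and at 7.70 and 7.59 with PLX4720. It fell 5.89-fold and 7.51-fold, and the 95% limits of the difference were -0.79 and 0.09. In both treatments co-culture lay above mono-culture. Errfi1, an inhibitor of the receptor that ERK induces, fell 7.11-fold and 7.88-fold, with limits of -0.57 and 0.28. Btc, the ligand betacellulin, fell at least 11.0-fold and at least 7.72-fold to undetected levels, so that the ratio of its effects was not measured. Among other genes chosen by name, Vegfa fell by 0.79 and 0.63, Inhba, a subunit of activin, rose by 1.43 and 0.91, Rhob rose by 0.50 and 0.85, and Bhlhe40 did not pass in either culture (0.01 and 0.29).

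**Figure D5:**
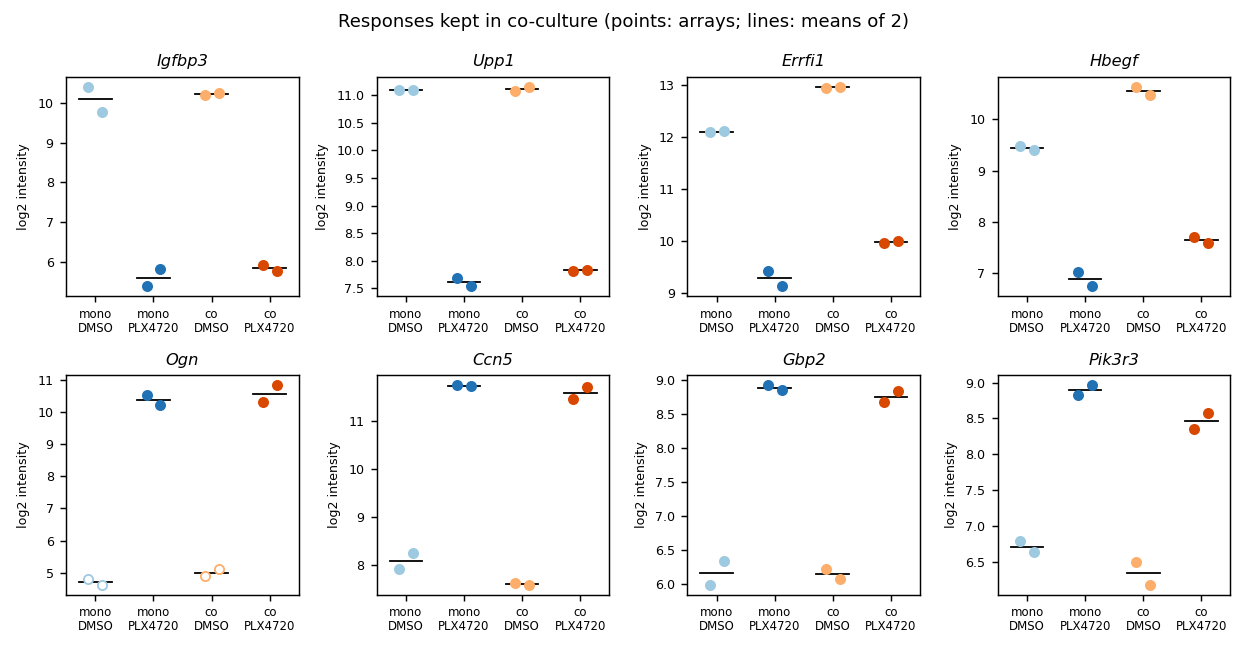
Log2 intensity of 8 genes with a kept response on each of the 8 arrays (points; open where detected on no array of the group), with lines at the mean of 2 arrays. The step from DMSO to PLX4720 is of like size in both cultures in each panel but that of Ogn, whose DMSO values are background, and Hbegf and Errfi1 stand higher in co-culture in both treatments.

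A drug effect of opposite direction passed in both cultures in 24 genes, and in 5 of them the difference passed too. These counts take no account of detection, and some of the effects lay in background. Mcf2l, among the 24, was detected in mono-culture with DMSO alone. Ulk4, a kinase of the ULK family, rose from 6.90 and 6.71 to 7.80 and 7.82 in mono-culture and fell from 8.05 and 7.76 to 6.69 and 6.65 in co-culture. No arrays of the 2 treatments overlapped in either culture, and the difference was -2.25 ± 0.20 (adjusted p = 0.00285, past the threshold in 16 of 17 alternative settings). Dipk1a, formerly Fam69a, rose by 0.97 in mono-culture, from 7.23 and 7.92 to 8.52 and 8.58, and fell by 1.51 in co-culture, from 8.64 and 8.46 to 6.76 and 7.32 (adjusted p = 0.0287). Aqp1, the water channel aquaporin 1, fell from 10.64 and 10.68 to 10.04 and 9.97 and rose from 10.15 and 10.20 to 10.77 and 10.83 (adjusted p = 0.0287). H3c7, a histone H3 gene with near-identical copies that its probe may also read, fell by 1.09 and rose by 0.67 (adjusted p = 0.0478). It was detected on only 1 of 2 arrays in mono-culture with PLX4720 and in co-culture with DMSO. Rasl11b, a small RAS-like GTPase, rose at least 1.56-fold in mono-culture and was undetected with PLX4720 in co-culture (adjusted p = 0.0113). In co-culture with DMSO it was detected on 1 array only (5.61 and 5.65), near the lowest detected signal. Its fall in co-culture was thus at least 1.04-fold, and its size was not measured. The other 3 of the 9 genes, Csn3, Atg4d and Samd7, were detected on both arrays of co-culture with DMSO and on no other array, at levels of 6.26 and 6.27, 6.04 and 6.07, and 5.77 and 5.67. These genes passed the detection filter only through that group, and their values in mono-culture were background. Their falls in co-culture were at least 1.61-fold, 1.39-fold and 1.10-fold. The difference passed in 10 of 16 alternative settings for Csn3, in 7 of 16 for Atg4d and for Samd7, in 11 of 16 for Rasl11b, in 8 of 16 for H3c7, and in 10 of 17 for Dipk1a and for Aqp1, and with the log2 values of the authors Csn3, Atg4d, Rasl11b and Samd7 did not pass.

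Some genes were detected on both arrays of 1 group and on no other array, and they passed the detection filter only through that group. For mono-culture with PLX4720 these were 29 of the 7357 genes, among them the ligand gene Wnt16 (5.72 and 5.65) and the kinase gene Camk2a (5.96 and 5.77). On both arrays of co-culture with PLX4720 and on no other, 12 were, among them Il13ra1, a receptor for interleukins 4 and 13 (5.86 and 5.67), and Igtp, an interferon-induced GTPase (6.0 and 5.68). With DMSO, 19 genes were detected in mono-culture alone, Prkcb (6.38 and 6.13) and Nefm (7.45 and 6.30) among them, and 17 in co-culture alone. The lowest detected signals on the arrays were 5.51 to 5.62.

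The difference in response can come from either treatment. Of the 510 responses that were smaller in co-culture at an unadjusted p under 0.05, the cultures differed at an adjusted p under 0.05 with PLX4720 alone in 191, with DMSO alone in 26, with both in 3 and with neither in 290. Of the 184 larger responses the numbers were 49, 25, 2 and 108. These contrasts share their arrays with the difference in response and are given as a description.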

How the data were processed

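RNA of 5555-mEGFP cells was hybridised to Illumina mouse BeadChips, 2 arrays for each of 4 groups. The authors deposited non-normalized probe intensities with a detection p-value per probe, and log2 values that equal the quantile-normalized intensities. The submitters' processing notes name lumi, with no version given in the sources used here. All columns were mapped to a sample.

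Intensities were background corrected and quantile normalized (neqc of limma 3.58.1 in R 4.3.3, offset 16). Of 25697 probes, 23978 had 1 gene symbol in the platform annotation, 1719 had none and 0 had several, and 23962 matched the RefSeq gene table. Probes with a detection p under 0.01 on at least 2 arrays were kept, and the brightest probe represented a gene. Signal stood 3.26 to 3.89 times over background, and the number of arrays limits the precision. A group-means model was fitted over 7357 genes with lmFit and eBayes (4 residual degrees of freedom), and p-values were adjusted over all of them by Benjamini-Hochberg. The scripts were tested on simulated data. A gene detected on no array of a group has only a bound there: "at least" compares the mean of the bright group with the mean, per array, of the higher of the lowest detected signal and the value of the gene.

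Named genes were all those with an adjusted p under 0.05 for the difference in response, the 12 with the smallest p on each side among responsive genes, the 8 largest kept rises and falls, up to 4 members per list by p, up to 6 genes detected in 1 group alone, and 9 genes chosen by name (Hbegf, Junb, Fos, Fosb, Jun, Inhba, Vegfa, Bhlhe40 and Rhob). Other members of lists, such as Mcm7, Mcm10, Il6st, Dusp4, Etv5, Tk1, Srm and Tfrc, were chosen after their values were seen. The gene lists and the comparison were chosen with earlier results of these data known. Same-numbered arrays did not deviate together (correlations -0.0836 to 0.0899), so no shift shared by a replicate number was seen. The labels do not say whether the numbers pair the samples, and the main model does not pair them. Alternatives were the log2 values of the authors, an offset of 50, median scaling, 2 other detection filters, the mean of probes, array weights, a gene-wise spread, a replicate block, other bounds for a kept response, and leaving out each array. Promoter sequences came from RefSeq (GRCm38.p6), which held 95 of 134 named genes.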

Additional observations from a re-analysis of the deposited data

Results flagged for a closer look

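The drug response differed between co-culture and mono-culture by the test of the difference itself in 9 genes. The adjusted p in limma was 0.00258 for Fos, 0.00285 for Ulk4, 0.0113 for Rasl11b, 0.0164 for Csn3, 0.0287 each for Aqp1, Atg4d, Dipk1a and Samd7, and 0.0478 for H3c7. Both replicate numbers gave the same sign in all 9, as they did in 2219 of the 3418 responsive genes. The 9 were picked on these same arrays, so this is no separate support. The level of Fos with PLX4720 was 3.11 (log2) higher in co-culture. Csn3, Atg4d and Samd7 were detected in co-culture with DMSO alone. When only genes detected on all 8 arrays were tested, 3 of the 9 could be tested (Ulk4, Aqp1 and Dipk1a), and all 3 passed.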

How the results depend on the processing

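The median difference in response over responsive genes kept its sign in every setting run, and the share with a smaller effect in co-culture ranged from 60.5% to 68.6%. The number of genes past the threshold for the difference did not hold. It was 95 with the log2 values of the authors, 122 with an offset of 50, 110 with median scaling, 28 for genes detected on all 8 arrays, 52 with the replicate block and 1 with a gene-wise spread (999 at an unadjusted p), of which 5, 8, 9, 3, 9 and 1 were among the 9. Without 1 array it was 2 to 35, 35 without replicate 2 of mono-culture with DMSO, 24 without replicate 1 of mono-culture with PLX4720, 4 without replicate 1 of mono-culture with DMSO, and 2 without either co-culture DMSO array or replicate 1 of co-culture with PLX4720. Blunted genes numbered 44, 50, 40, 9 and 21 in the first 5 of these settings, 0 with the mean of probes and with a gene-wise spread, and 0 to 17 without 1 array. Enlarged genes numbered 22 with the log2 values of the authors, 33 with an offset of 50, 30 with median scaling, 12 with the replicate block, 1 with a gene-wise spread and 1 to 9 without 1 array. Kept genes numbered 191 with median scaling, 56 with bounds of 0.67 to 1.5 and 170 to 309 without 1 array, lowest without replicate 1 (170) or 2 (172) of co-culture with DMSO. Without these 2 arrays in turn, drug calls in co-culture fell to 992 and 1019 (range 992 to 1946) and smaller responses at an unadjusted p to 274 and 295 (range 274 to 604). With a gene-wise spread, drug calls numbered 1759 in mono-culture and 988 in co-culture. Median scaling moved the median difference of all genes to 0.16, and relative to it the list medians of interferon, collagen, contractile, mitosis and TGF-beta genes have no settled direction. The interferon list median turned to -0.051 for genes detected on all 8 arrays and to -0.048 without replicate 2 of mono-culture with DMSO (range without 1 array -0.048 to 0.23). Of 2230 values of named genes, 2023 kept their side of the threshold, 53 lost it, 154 gained it and 0 changed sign while called. The cause of these changes was not tested.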
